A study of Mus musculus with 153 samples.

Results

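The genes described here encode 9 regulators of messenger RNA translation at synapses: the fragile X proteins (Fmr1, Fxr1 and Fxr2), the FMRP-interacting proteins (Cyfip1 and Cyfip2) and the cytoplasmic polyadenylation element binding proteins (Cpeb1, Cpeb2, Cpeb3 and Cpeb4). They are taken by name, with no threshold on their values, although the choice was made with earlier results of these data known. All 9 were found in each of the 6 deposited count tables, which listed 23366 genes (Camk2a, 15 min) or 24391 genes (the other 5 tables). The mice were of the genotypes Camk2a.Cre/TRAPfl, Pvalb.Cre/TRAPfl and Sst.Cre/TRAPfl, in which Cre recombinase marks excitatory neurons, parvalbumin interneurons or somatostatin interneurons with a tagged ribosome. Ribosome-bound RNA of those cells can thus be pulled down (the purified fraction) and set beside the total lysate of the dorsal hippocampus. Mice stayed in the home cage, were placed in a new context without shock (labelled box control, here box) or were given a shock in the new context (labelled conditioned, here shock). Box and shock mice belong to a set labelled 15min or 60min. Each set has home cage mice of its own, and these carry the Cre and the floxed TRAP allele as well, so no group lacks either. The labels give no age or sex, and they call the cell type neuron for lysates too, although a lysate holds RNA of all cells of the tissue. Here 151 libraries in 36 groups of 3 to 6 were used, 76 of them purified and 75 lysate. The series calls these biological replicates and the labels do not name the animals, so the p-values measure the spread between these libraries.

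FMRP, the product of Fmr1, binds messenger RNAs in dendrites and holds back their translation, and its loss causes fragile X syndrome; Fxr1 and Fxr2 encode close relatives that bind RNA through the same kinds of domain. CYFIP1 binds FMRP and the cap-binding factor eIF4E, and both CYFIP proteins also sit in the WAVE complex, which drives actin branching in dendritic spines. CPEB proteins bind U-rich elements in the tails of messenger RNAs and control the length of the poly(A) tail, and so translation, and they have been studied in hippocampal plasticity and memory storage.

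Because these families hold near copies of one protein, the coding stretches below show how far the reads of their members can be told apart. Each stretch codes for the same amino acids in every member shown, and capitals mark the bases that differ from the first gene named. They are from the GENCODE M21 annotation of the mouse build GRCm38. The first set is a run of 18 residues shared by the fragile X genes (coding bases 271 to 324 of Fmr1 and Fxr1 and 301 to 354 of Fxr2), at chrX:68695489-68695542 (plus strand) for Fmr1, chr3:34046437-34046490 (plus) for Fxr1 and chr11:69641441-69641494 (plus) for Fxr2, with a GC content of 31.5%, 33.3% and 42.6%.
Fmr1: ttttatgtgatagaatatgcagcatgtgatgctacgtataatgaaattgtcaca
Fxr1: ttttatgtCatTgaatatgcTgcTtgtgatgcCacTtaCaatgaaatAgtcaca
Fxr2: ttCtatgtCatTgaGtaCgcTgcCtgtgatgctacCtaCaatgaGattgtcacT
Over 54 bases Fxr1 differed from Fmr1 at 8 bases and Fxr2 differed from Fmr1 at 11. The second set is a run of 30 residues shared by the CYFIP genes, at chr7:55874997-55875086 (plus) for Cyfip1 and chr11:46279954-46280043 (minus) for Cyfip2.
Cyfip1: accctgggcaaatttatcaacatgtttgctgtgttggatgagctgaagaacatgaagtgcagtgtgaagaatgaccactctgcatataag
Cyfip2: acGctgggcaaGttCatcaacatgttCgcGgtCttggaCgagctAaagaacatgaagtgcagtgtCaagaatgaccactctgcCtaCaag
These differed at 11 of 90 bases. The third set is a run of 54 residues shared by 3 of the CPEB genes, at chr5:43283939-43284100 (plus) for Cpeb2, chr19:37044540-37044701 (minus) for Cpeb3 and chr11:31930040-31930201 (plus) for Cpeb4.
Cpeb2: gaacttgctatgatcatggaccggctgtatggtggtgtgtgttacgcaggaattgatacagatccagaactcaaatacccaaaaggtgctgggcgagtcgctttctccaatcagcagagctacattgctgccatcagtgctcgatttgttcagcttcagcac
Cpeb3: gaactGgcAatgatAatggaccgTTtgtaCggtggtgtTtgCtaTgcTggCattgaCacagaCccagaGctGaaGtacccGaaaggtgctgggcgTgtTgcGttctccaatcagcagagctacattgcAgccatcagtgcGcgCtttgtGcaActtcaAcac
Cpeb4: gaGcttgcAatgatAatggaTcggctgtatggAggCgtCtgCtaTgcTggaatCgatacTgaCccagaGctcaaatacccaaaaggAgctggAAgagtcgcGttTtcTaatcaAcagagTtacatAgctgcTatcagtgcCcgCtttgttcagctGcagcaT
Of 162 bases, Cpeb3 differed from Cpeb2 at 26 and Cpeb4 at 28. Exact shared runs were sought in 1 transcript per gene, the one with the longest complete coding sequence. The longest run shared by any pair of the 9 genes was then 29 bases, between Cpeb2 and Cpeb4. It was 24 bases between Cyfip1 and Cyfip2 and 20 between Fxr1 and Fxr2. For Cpeb4 the transcript used holds 2312 bases and its longest one 6303, so longer runs outside the transcripts used were not sought. The sources used here do not say how reads that fit several genes were counted.

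The genes lie on 6 chromosomes of GRCm38: Fmr1 at chrX:68678541-68717963, Fxr1 at chr3:34019943-34070322, Fxr2 at chr11:69632990-69653297, Cyfip1 at chr7:55841745-55932602, Cyfip2 at chr11:46193850-46312859, Cpeb1 at chr7:81347026-81455465, Cpeb2 at chr5:43233170-43289724, Cpeb3 at chr19:37021291-37208601 and Cpeb4 at chr11:31872211-31935634. Cyfip2, Cpeb1 and Cpeb3 are on the minus strand and the others on the plus strand. Their longest transcripts differ in base composition: the GC content was 39.2% for Fmr1, 39.4% for Fxr1 and 39.3% for Cpeb4, against 58.5% for Fxr2, 51.8% for Cyfip2, 46.1% for Cyfip1, 48.2% for Cpeb1, 47.5% for Cpeb2 and 47.7% for Cpeb3. Exons of Cyfip1 overlap 1316 bases of the opposite-strand gene Nipa2, and exons of Fxr1 overlap 178 bases of Dnajc19, also on the opposite strand. The library kit does not mark strand, so reads in these stretches cannot be assigned to 1 gene. Smaller overlaps were found with the noncoding genes Gm27838 (72 bases of Fmr1), Gm44616 (173 of Cyfip1), Gm7854 (137 of Cpeb2) and A330032B11Rik (116 of Cpeb3).

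Library totals ran from 9043042 to 397228206 counts, and the members' smallest count in any library was 15 for Cpeb4, 84 for Cpeb3 and 139 or more for the other 7. Some libraries stand apart. The own-class score is the mean log2 CPM (a gene's share of all counts of its library, on the usual CPM scale) of a line's own marker lists less that of other lists, set against the same table's lysates. Own lists were pyramidal for Camk2a, and parvalbumin or somatostatin together with GABA neuron for Pvalb and Sst. Other lists were the non-neuronal ones, with GABA neuron for Camk2a and pyramidal for Pvalb and Sst. The score thus does not set 1 interneuron class against the other. It was below 1 in 9 purified libraries, all of the Sst line. They were 1 box and 2 shock libraries of the 15 min set, and 2 home cage and all 4 shock libraries of the 60 min set. In the 4 Sst 60 min shock libraries labelled purified it was −1.12 to −0.39, and the summed CPM of the 8 somatostatin markers was 211 to 504, against 246 to 509 in the home cage lysates of that table, so these libraries go against their label. Among the Sst 60 min lysates, box replicate 1 and home cage replicates 4 and 5 held 264109341 to 292132306 counts and the other 10 at most 79349264. Fxr2, Fmr1, Fxr1, Cyfip2, Cpeb2, Cpeb3 and Cpeb4 did not overlap between these 3 and the other 10. The share of all genes that did so was not counted, so this does not set the members apart. Fxr2, for example, stood at 82.6 to 97.0 CPM in the 3 deep lysates and at 15.4 to 39.8 CPM in the others, and Fmr1 at 33.5 to 54.2 against 76.7 to 249 CPM.

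Levels of different genes are compared as CPM per kb of all annotated exons of a gene, so the order rests on that length. Cyfip2 was by far the highest member: it ranked first in 151 of 151 libraries, and its mean in the 6 home cage purified groups was 60.6 to 81.7 CPM per kb. Fxr2 ranked second in all 6 of these groups, at 15.7 to 28.7 CPM per kb, and in 129 of 151 libraries. The gap from Fxr2 to the next gene was larger than the spread between libraries in the Camk2a groups of both sets and in the Pvalb and Sst 60 min groups, and within it in the Pvalb and Sst 15 min groups, where Cpeb4 came next. Cpeb1 had rank 3 in 3 of the groups and rank 4 in the other 3. Fxr1 had rank 5 in all 6, and Cpeb3 was last in 5. Cpeb4 had rank 3 or 4 in 5 groups, but was last in the Camk2a 15 min group, at 0.295 CPM per kb. Among the genes from rank 4 down, most neighbours did not differ beyond their spread.

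Within families the unequal levels held in each library examined for Cyfip2 over Cyfip1. The ratio of Cyfip2 to Cyfip1 per kb was 11.96 in the lowest, 25.8 in the median and 86.9 in the highest purified library, against 7.66, 11.3 and 17.8 in the lysates. The ratio of Fmr1 to Fxr2 per kb was 0.0292, 0.192 and 0.802 in the purified libraries and 0.0845, 0.370 and 6.81 in the lysates. On this scale Fxr2 stood above Fmr1 in each purified library, but not in each lysate. The scale divides by all annotated exons, 8966 bases for Fmr1 and 3766 for Fxr2, while their longest transcripts hold 4409 and 2951 bases. With the transcript length Fmr1 would weigh more, so the order in single libraries depends on the length taken.

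Ribosome-bound RNA of the marked neurons was poorer in Cyfip1 than the lysate around it in each of the 6 tables, by 1.74-fold to 2.95-fold, in the Camk2a, Pvalb and Sst lines. Fmr1 was called lower in 3 of the tables. Fxr2 was higher in the purified fraction of Camk2a and Sst mice, Fxr1 was higher in the purified fraction of the Pvalb line, and Cpeb1 was lower there. These comparisons used all libraries of a table, averaged over conditions, with edgeR's quasi-likelihood test and Benjamini-Hochberg adjustment over all genes tested, as do all adjusted p-values below, and a gene is called where the adjusted p is below 0.05. They called 29 of 54 member values. Purified and lysate differ in many genes: 50.7% of all genes were called in Camk2a 15 min, 57.5% in Camk2a 60 min, 45.6% in Pvalb 15 min, 60.4% in Pvalb 60 min, 44.5% in Sst 15 min and 59.4% in Sst 60 min, so a call alone does not set a member apart. In bulk samples like these, fewer cells of a type and less RNA per cell cannot be told apart. Markers of non-neuronal cells moved with the fraction: the summed CPM of 52 genes in 6 lists (astrocytes, oligodendrocytes and their precursors, microglia, endothelium and choroid plexus) was lower in the purified fraction. Its median was 1552 in purified and 14393 in lysate libraries in Camk2a 15 min and 1539 and 16546 in Camk2a 60 min. In the Pvalb line it was 7540 and 17302 at 15 min and 6524 and 21013 at 60 min. In the Sst line it was 5797 and 20700 at 15 min and 12371 and 20437 at 60 min. The ranges of these sums did not overlap within the 4 Camk2a and Pvalb tables and overlapped in the Sst tables. Of the 52 genes, 10, 11, 3, 2, 2 and 0 were at 0 in some purified library of these tables, and 0 were at 0 in all of them. Their part in the member differences was not tested.

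Fmr1 stood at 19.4, 47.4 and 65.0 CPM (lowest, median and highest library) in the Camk2a 15 min purified fraction and at 59.3, 79.9 and 122 CPM in its lysates, and in the 60 min set at 12.2, 25.8 and 70.2 against 30.4, 60.4 and 107 CPM. In the Pvalb line it stood at 21.0, 28.8 and 70.2 against 20.5, 64.1 and 146 CPM at 15 min and at 12.7, 43.2 and 78.2 against 31.5, 56.9 and 124 CPM at 60 min. The purified medians were lower in all of these, with overlapping ranges. The difference, purified less lysate, was −0.67 ± 0.21 log2 units (SE, adjusted p = 0.0115) in Camk2a 15 min and −0.86 ± 0.24 (adjusted p = 0.00344) in Camk2a 60 min. In the Pvalb line it was −0.64 (adjusted p = 0.0574) and −0.35 (adjusted p = 0.134), which missed the threshold. Sst values were −0.79 (adjusted p = 0.0676) at 15 min and −2.49 ± 0.44 (adjusted p = 5.84e-05) at 60 min, where purified libraries held 6.78, 13.3 and 90.3 CPM and lysates 33.5, 136 and 249. Fmr1 was thus below 0 in 6 of 6 tables and called in 3.

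Fxr2 went the other way in Camk2a and Sst mice, by 0.59 (adjusted p = 0.000683) and 0.52 (adjusted p = 2.2e-05) in the Camk2a sets and by 0.50 (adjusted p = 0.00539) and 1.08 (adjusted p = 0.00174) in the Sst sets. In the Pvalb sets it was −0.06 in both. Its CPM in Camk2a 60 min was 81.1, 98.6 and 133 purified against 70.1, 88.0 and 109 in the lysates, which overlap. Fxr1 was called higher in purified RNA in Pvalb 15 min (0.57), Pvalb 60 min (0.55) and Sst 15 min (0.81), and lower in Camk2a 15 min (−0.35) and Sst 60 min (−0.94). Its neighbour Dnajc19, which shares exon bases with it, was called higher by 0.98, 0.64, 0.59, 0.77 and 0.83 in Camk2a 15 and 60 min, Pvalb 15 and 60 min and Sst 15 min, and lower by −0.58 in Sst 60 min. What part of Fxr1 reads it holds was not tested. With offsets for GC content and length in each library, Fxr2 kept its calls in the Camk2a tables (0.44 and 0.32) and Sst 15 min (0.46), and lost that of Sst 60 min (0.23, adjusted p = 0.178). It was then called higher in Pvalb 60 min too, so in 4 tables in all. Fxr1 kept its calls in the Pvalb tables (0.44 and 0.30) and Sst 15 min (0.79). It lost that of Camk2a 15 min (−0.04) and was called higher in Sst 60 min (0.48). Fmr1 was then called in 5 of 6 tables, at −0.70 in Camk2a 60 min, −0.69 and −0.54 in the Pvalb tables and −0.86 and −1.17 in the Sst tables. In Camk2a 15 min it was −0.36 (adjusted p = 0.1304). Leaving out 1 replicate ended the Fxr1 call in Camk2a 15 min in 6 fits, without box replicate 1 or 2, home cage replicate 1 or 3, or shock replicate 2 or 3 (−0.36 to −0.29).

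Cyfip1, the CYFIP family member that binds eIF4E, stood at 25.4, 38.1 and 53.2 CPM in Camk2a 15 min purified libraries against 66.7, 88.0 and 116 in lysates, and at 20.2, 33.0 and 42.3 against 59.6, 84.9 and 110 in the 60 min set. In Pvalb mice it stood at 8.33, 28.1 and 43.2 against 71.5, 87.5 and 107 CPM at 15 min and at 14.8, 25.8 and 41.7 against 84.3, 92.6 and 107 CPM at 60 min. Each purified library lay below each lysate in these 4 tables and in Sst 15 min, where 23.3, 36.1 and 63.9 CPM stood against 101, 122 and 151. The share of all genes with purified libraries wholly below lysates was 12.9%, 12.3%, 4.0%, 7.45% and 5.60% in these 5 tables (Camk2a, Pvalb and Sst, by set). In Sst 60 min the ranges met, at 24.5 to 66.6 against 63.0 to 109 CPM. The log2 differences were −0.80 ± 0.14 (adjusted p = 0.000101) and −1.11 ± 0.12 (adjusted p = 2.24e-08) in Camk2a, −1.50 ± 0.17 (adjusted p = 7.47e-08) and −1.56 ± 0.12 (adjusted p = 1.33e-12) in Pvalb, and −1.27 ± 0.13 (adjusted p = 1.13e-07) and −0.86 ± 0.14 (adjusted p = 2.35e-05) in Sst. Nipa2, which overlaps Cyfip1, was not lower by as much in 5 of the tables, at −0.02, −0.14, 0.18, 0.29 and 0.26 for Camk2a 15 and 60 min, Pvalb 15 and 60 min and Sst 15 min, and was −1.19 in Sst 60 min. The Cyfip1 difference was called in all 6 tables, in every fit that left out a replicate, and with offsets for GC content and length, at −1.69 to −0.55. Those offsets called 52.6% and 60.1% of genes in the Camk2a tables, 47.1% and 61.9% in the Pvalb tables and 49.4% and 41.7% in the Sst tables.

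Cyfip2 RNA was split much more evenly. It was called lower in purified RNA in Pvalb 15 min (−0.28), Pvalb 60 min (−0.25) and Sst 15 min (−0.28) and higher in Camk2a 15 min (0.36, adjusted p = 0.0337). In Pvalb 15 min its purified libraries, at 309, 439 and 525 CPM, lay wholly below the lysates, at 561, 614 and 705. The call was lost in Camk2a 15 min without box replicate 2, home cage replicate 1, 2 or 3, or shock replicate 1 (0.31 to 0.38), and in Sst 15 min without box replicate 3 or shock replicate 5 (−0.27 and −0.25). In home cage libraries only, each of the Cyfip2 calls named here was lost. With GC and length offsets Cyfip2 was called higher in 2 tables and lower in 4 (−0.49 to 0.28), to be read against the shares given for these offsets above.

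The CPEB genes differed among themselves. Cpeb1 was lower in the purified fraction of Pvalb mice, at 7.62, 24.3 and 48.8 CPM against 35.5, 51.2 and 68.4 at 15 min (−0.72 ± 0.18, adjusted p = 0.00177) and at 17.8, 27.1 and 37.3 against 34.6, 45.4 and 58.8 at 60 min (−0.48, adjusted p = 1.19e-05). It was not called in Camk2a or Sst mice. Cpeb3, a low-abundance member, was called higher only in Pvalb 60 min, at 6.29, 12.4 and 22.6 CPM against 4.999, 7.40 and 12.5 (0.96 ± 0.16, adjusted p = 3.65e-06). Cpeb2 was higher there by 0.57 (adjusted p = 0.00365) and lower in Camk2a 15 min (−0.45) and Sst 60 min (−0.82). Cpeb4 was called in Sst 60 min, where it was −1.19 (adjusted p = 0.0101), and in none of the other 5 tables, at −0.66 to 0.20. The offsets ended the calls of Cpeb2 in Camk2a 15 min (−0.41) and Sst 60 min (−0.68). They also ended that of Cpeb4 in Sst 60 min (0.16). The Cpeb2 call was also lost without box replicate 1 or 2 or home cage replicate 2 in Camk2a 15 min, and without box replicate 2, home cage replicate 1 or 3, or shock replicate 1 or 3 in Sst 60 min (adjusted p up to 0.111).

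The scaling matters for these fraction differences. With library totals in place of the TMM scaling, an alternative chosen after seeing the data, the median of all genes moved from −0.14 to −0.49 in Camk2a 15 min, and from −0.26 to −0.56 in Camk2a 60 min. It moved from −0.15 to −0.39 in Pvalb 15 min, from −0.13 to −0.40 in Pvalb 60 min and from −0.05 to −0.45 in Sst 15 min. On that scale 55.3% and 61.9% of genes were called in the Camk2a tables, 48.9% and 63.7% in the Pvalb tables and 49.0% and 55.7% in the Sst tables. Cyfip1 was then called lower in 6 of 6 tables (−1.84 to −0.87) and Fmr1 in 6 of 6 (−2.42 to −0.63). Fxr2 was then 0.24 and 0.23 in the Camk2a tables, 0.08 in Sst 15 min and 1.01 in Sst 60 min, called in Camk2a 60 min and Sst 60 min, and was called lower in the Pvalb tables (−0.31 and −0.34). Cyfip2 was 0.00 in Camk2a 15 min, and Fxr1 was called higher in Sst 15 min (0.41) and not in the Pvalb tables (0.33 and 0.26). Relative to the median of all genes on either scale, Cyfip1 and Fmr1 lay below it in 6 of 6 tables and Fxr2 above it in 6 of 6, by little in the Pvalb tables. Without the low own-class libraries, where 49.7% and 43.3% of genes were called, Cyfip1 was −1.41 in Sst 15 min and −1.07 in Sst 60 min, both called, Fmr1 in Sst 60 min was −2.58, and the Fxr1 call in Sst 60 min was lost (−0.68, adjusted p = 0.0629). Without the 3 deep lysates Sst 60 min gave −2.77 for Fmr1, 1.69 for Fxr2, −0.80 for Cyfip1 and −1.45 for Cpeb4, all called (67.6% of genes).

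**Figure D1:**
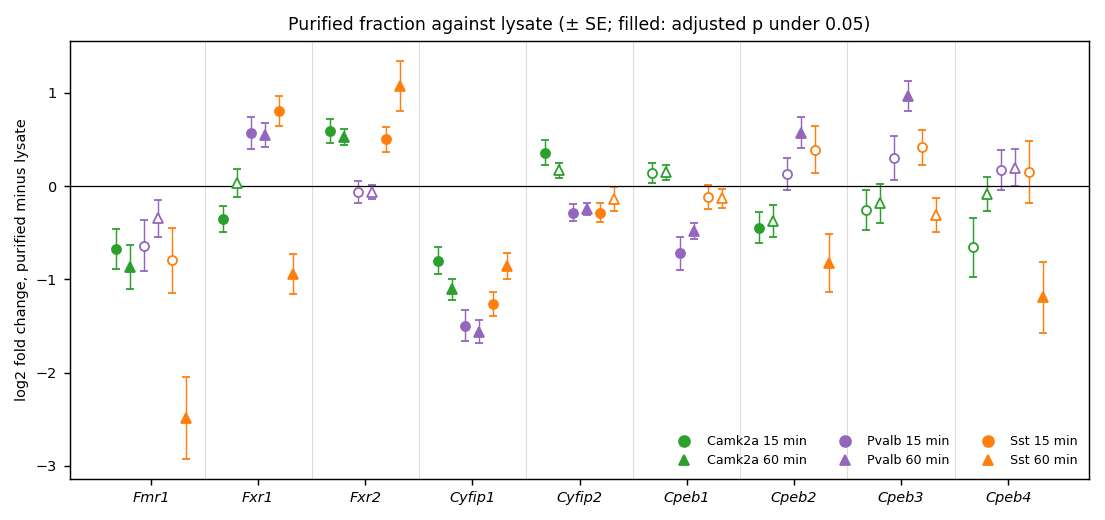
Log2 fold change of each gene between purified and lysate libraries (y axis, log2 units with SE) in each line (colour), with circles for the 15 min and triangles for the 60 min table and filled symbols for an adjusted p below 0.05. Cyfip1 lies below 0 with a filled symbol in 6 of 6 tables, while Fxr2 lies at 0.50 or above in the Camk2a and Sst tables and at −0.06 in the Pvalb tables.

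Other genes of the pathway were split between the fractions as well. Their counts are to be read against the 44.5% to 60.4% of all genes called per table given above. Of the 8 WAVE complex genes, the partners of CYFIP in actin control, 3 were called higher and 2 lower in Camk2a 15 min, 3 and 1 in Camk2a 60 min, 1 and 4 in Pvalb 15 min, 3 and 4 in Pvalb 60 min, 4 and 1 in Sst 15 min and 2 and 5 in Sst 60 min. Brk1, a small WAVE subunit, was higher in Camk2a purified RNA (0.96 and 0.82), and Abi1, Abi2 and Nckap1 were lower in Pvalb RNA of both sets (−0.94 to −0.53). Among genes whose messenger RNAs are known to bind FMRP, Nlgn2, an adhesion protein of inhibitory synapses, was higher in purified RNA in 6 of 6 tables, at 1.23 to 2.25. Of these target genes, the Camk2a 15 and 60 min tables had 10 and 12 called higher and 2 and 3 lower, with a median of 0.45 and 0.67 against −0.14 and −0.26 over all genes. The Pvalb 15 and 60 min tables had 4 and 5 higher and 5 and 8 lower, with a median of 0.14 and −0.26 against −0.15 and −0.13. The Pvalb tables held Kcnc1, a fast potassium channel, at 2.28 and 2.61 above the lysate, and Arc and Camk2a, transcripts of excitatory neurons, at −1.98 and −1.92 and at −1.15 and −1.41.

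Across conditions, the purified RNA of the Pvalb line at 60 min held the most called members. Fmr1, Fxr1, Cpeb2 and Cpeb4 were lower after shock than in the home cage, by 1.61-fold to 2.14-fold, and Fxr2 was higher by 1.55-fold. There 35.0% of all 16135 genes tested were called, 19.7% higher and 15.3% lower, so 5 of 9 members called is to be read against that share.
Fmr1 stood at 41.8, 47.8 and 78.2 CPM in the 6 home cage libraries and at 12.7, 21.5 and 48.9 in the 6 shock libraries, with 33.5, 41.4, 60.5 and 68.2 in the 4 box libraries. The shock values were mostly the lower ones, but the ranges overlapped. The log2 change, shock less home cage, was −1.10 ± 0.29 (adjusted p = 0.00702).
Fxr1 stood at 33.7, 43.0 and 50.1 CPM in the home cage and at 16.3, 21.4 and 40.8 after shock, with 21.0, 33.8, 34.5 and 38.6 in box mice. Its change was −0.83 ± 0.22 (adjusted p = 0.00851), again with overlapping ranges.
Fxr2 stood at 56.4, 61.2 and 65.9 CPM in the home cage and at 75.1, 99.8 and 113 after shock, with 55.9, 65.3, 71.8 and 83.7 in box mice. Each shock library was above each home cage library, as for 11.3% of genes in either direction, and the change was 0.64 ± 0.13 (adjusted p = 0.00129).
The CYFIP genes were not called, at −0.29 ± 0.25 for Cyfip1 (adjusted p = 0.402) and −0.27 ± 0.11 for Cyfip2 (adjusted p = 0.0731).
Of the CPEB genes, Cpeb2 stood at 20.1, 30.8 and 37.0 CPM in the home cage, at 8.95, 18.8 and 25.3 after shock and at 26.0, 29.9, 34.4 and 49.3 in box mice. Its change from the home cage was −0.68 ± 0.26 (adjusted p = 0.0443), and each shock library lay below each box library, as for 2.15% of genes in either direction. Cpeb4 stood at 49.0, 67.9 and 81.5 CPM in the home cage, 15.8, 35.0 and 79.7 after shock and 47.9, 49.5, 63.3 and 70.5 in box mice, a change of −0.73 ± 0.28 (adjusted p = 0.0498) with overlapping ranges. Cpeb1 (−0.29, adjusted p = 0.154) and Cpeb3 (−0.05, adjusted p = 0.908) were not called.
In the lysates the ranges of these genes overlapped between the conditions. Fmr1 held 37.7, 51.4 and 60.5 CPM in the home cage and 38.3, 57.1 and 118 after shock, Fxr2 72.1, 95.0 and 113 against 72.5, 87.9 and 118, and Cpeb4 25.7, 58.0 and 62.3 against 32.0, 56.1 and 113. Between shock and box the purified values were −1.03 for Fmr1, −0.94 for Cpeb2 and 0.49 for Fxr2 (adjusted p = 0.171 each), which did not pass the test.

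**Figure D2:**
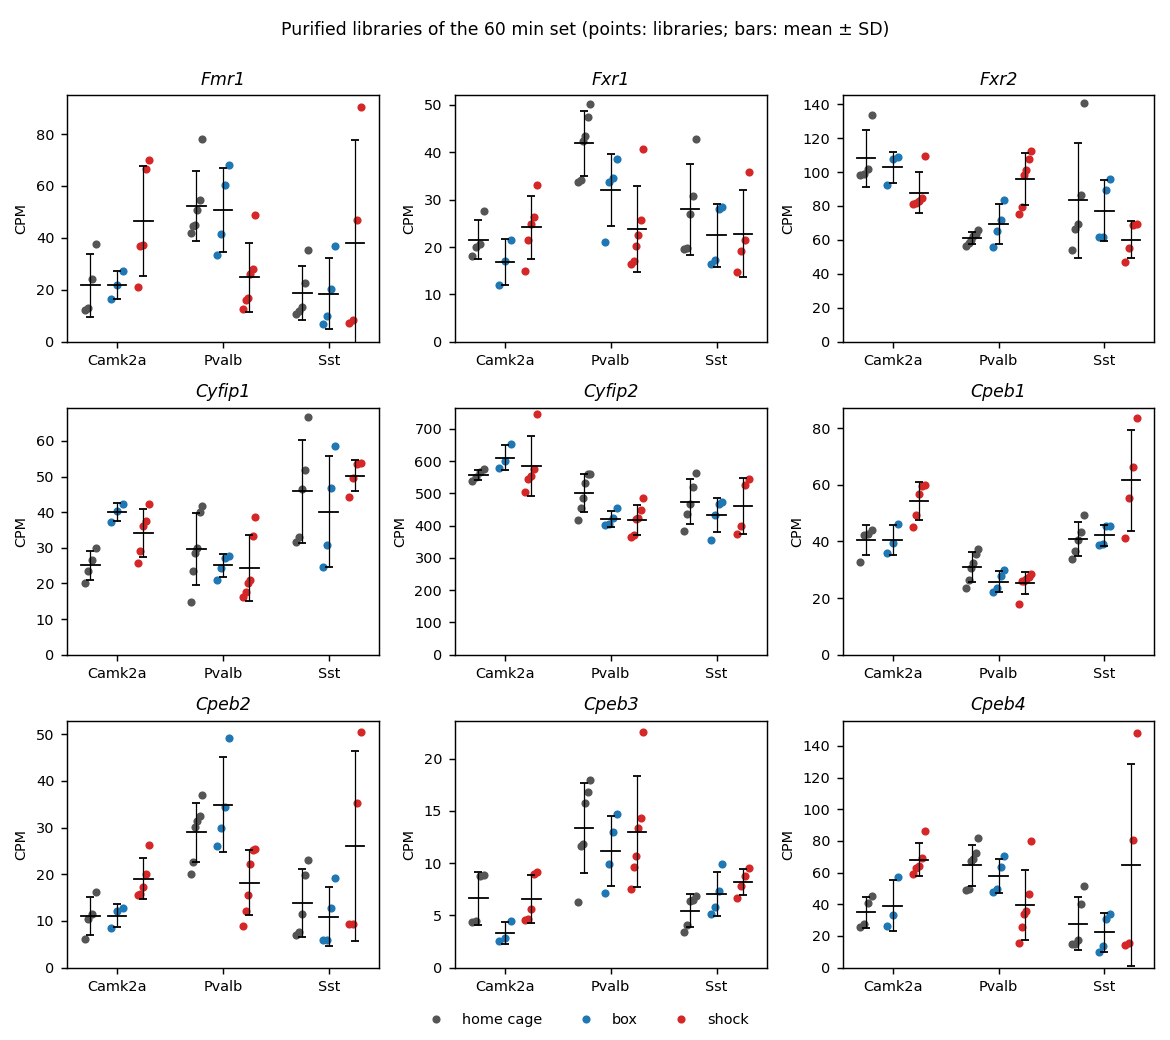
CPM of the members (y axis) in the purified libraries of the 60 min set by line and condition; points are libraries, and the bar and its error are the mean and SD, with the error cut at 0 where it would pass below. In the Pvalb line the 6 shock libraries of Fxr2 lie at 75.1 to 113, above the 6 home cage libraries at 56.4 to 65.9.

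Base composition moved with these values. The slope of a library's log2 CPM over the GC content of genes, against the other libraries of its table and fraction, was −0.58 to −0.32 log2 units per 10 GC points in the Pvalb 60 min home cage libraries, −0.46 to 0.30 in box and −0.12 to 0.84 in shock libraries. The members that fell have a GC content of 39.2% to 47.5% and Fxr2, which rose, has 58.5%. With offsets for GC content and length in each library 12.8% of genes were called, Fmr1 was −0.34, Fxr1 −0.06, Fxr2 −0.06, Cpeb2 −0.48 and Cpeb4 −0.02, none of them called, and Cyfip2 was called at −0.37. Over the 76 purified libraries, taken within their tables, the correlation of log2 CPM with this slope was −0.77 for Fmr1, −0.75 for Fxr1, −0.72 for Cpeb2 and Cpeb4, 0.70 for Fxr2, −0.31 for Cpeb3, −0.18 for Cyfip2 and −0.08 for Cyfip1 and Cpeb1, as a description: libraries of a table share a condition or a preparation. The own-class score was 3.69 to 5.28 in the home cage and 3.37 to 5.18 after shock. The summed CPM of the 8 parvalbumin markers was 2168 to 3060 in the home cage and 2112 to 2993 after shock, that of the 12 GABA neuron markers 4185 to 5870 and 2953 to 5364, that of the 8 somatostatin markers 1321 to 2055 and 2097 to 3264, and that of the 12 pyramidal markers 823 to 1199 and 1046 to 1684, so the somatostatin sums did not overlap between the groups. In these libraries 1 of the 8 somatostatin markers was at 0 in some library of each group, and 0 markers of the other 3 lists were. Their part in the member differences was not tested.
Fmr1, Fxr1 and Fxr2 stayed called in each of 16 fits that left out 1 library. The Cpeb2 call was lost in 9 of them, without box replicate 3 or 4, home cage replicate 4 or 6, either unnumbered home cage library, or shock replicate 3, 4 or 6 (−0.81 to −0.55, adjusted p up to 0.108). The Cpeb4 call was lost in 12, without any 1 of the 4 box libraries, home cage replicate 3 or 4, either unnumbered home cage library, or shock replicate 3, 4, 5 or 6 (−1.04 to −0.56, adjusted p up to 0.131).

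**Figure D3:**
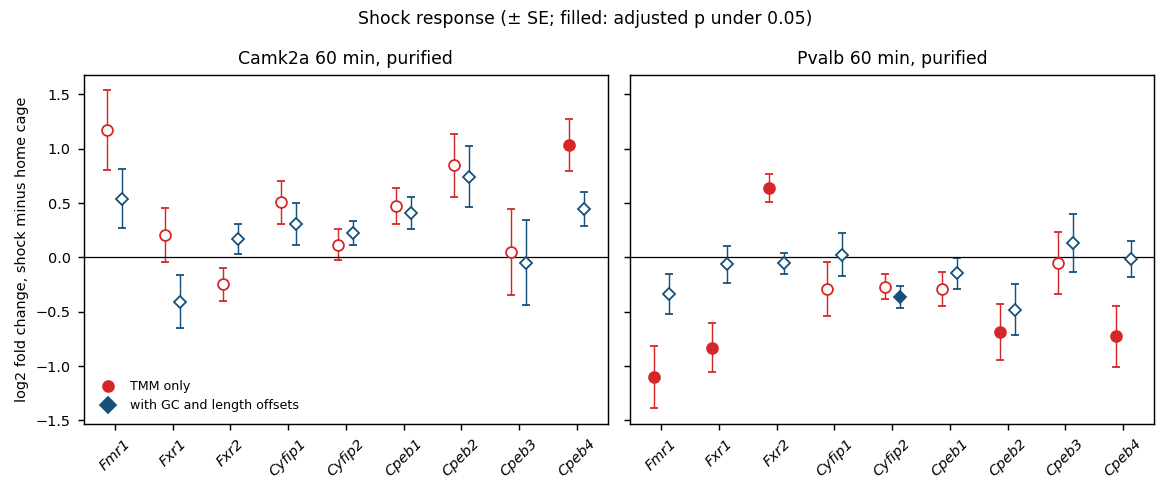
Log2 change from home cage to shock (y axis, with SE) of each member in the purified libraries of the Camk2a and Pvalb lines at 60 min, with TMM scaling only (circles) and with added offsets for GC content and length (diamonds); filled symbols are called. In the Pvalb line Fmr1 moves from −1.10 to −0.34 and Fxr2 from 0.64 to −0.06.

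**Figure D4:**
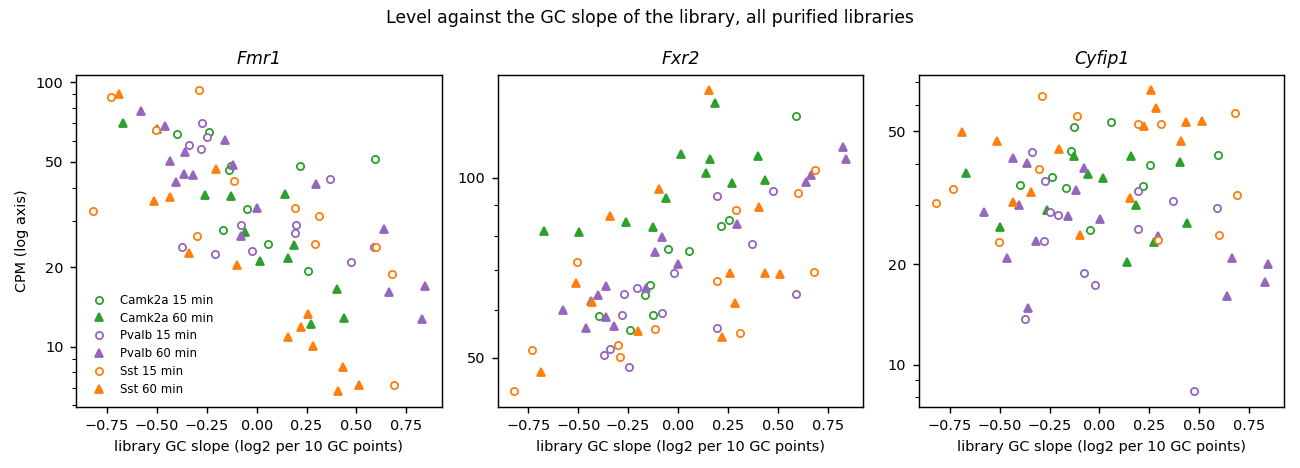
CPM of Fmr1, Fxr2 and Cyfip1 (y axis, log scale) in 76 purified libraries against the library's GC slope (x axis, log2 units per 10 GC points), with the line as colour, filled triangles for 60 min and open circles for 15 min. Fmr1 falls and Fxr2 rises along the x axis (r = −0.77 and 0.70 within tables), and Cyfip1 does not follow it (r = −0.08).

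In excitatory neurons of the Camk2a line at 60 min 1 of 9 members was called: Cpeb4 was higher after shock than in the home cage, by 2.05-fold. There 2.30% of 14673 genes were called. Cpeb4 stood at 25.3, 27.5, 41.0 and 45.3 CPM in the 4 home cage libraries, at 26.3, 33.4 and 57.1 in the 3 box libraries and at 58.8, 62.8, 64.3, 69.3 and 86.0 in the 5 shock libraries. All 5 shock libraries were above all home cage and box libraries, as for 10.3% and 7.38% of genes in either direction, and the change from the home cage was 1.04 ± 0.24 (adjusted p = 0.0475).
Cpeb2 stood at 6.16, 10.5, 11.5 and 16.1 CPM in the home cage, 8.38, 12.2 and 12.9 in box and 15.6, 15.8, 17.3, 20.1 and 26.2 after shock, so that shock libraries lay above box libraries and overlapped the home cage (0.85 ± 0.29, adjusted p = 0.0868). Cpeb1 stood at 32.6, 42.1, 42.8 and 44.1 CPM in the home cage, 35.9, 39.4 and 46.1 in box and 44.9, 49.4, 56.8, 59.5 and 60.1 after shock, above each home cage library (0.47 ± 0.16, adjusted p = 0.0878). Neither passed the test, and Cpeb3, at 4.41 to 8.91 in the home cage, 2.52 to 4.46 in box and 4.51 to 9.12 CPM after shock, differed from the home cage by 0.05.
Fmr1 stood at 12.2, 12.9, 24.3 and 37.8 CPM in the home cage, 16.5, 21.7 and 27.3 in box and 21.0, 37.0, 37.3, 66.5 and 70.2 after shock (1.17 ± 0.37, adjusted p = 0.0730), with overlap. Fxr1 was 0.21, at 18.1 to 27.7 against 14.9 to 33.1 CPM, and Fxr2 was −0.25 ± 0.15 (adjusted p = 0.334), at 98.0, 99.1, 102 and 133 against 81.1, 81.5, 82.7, 84.5 and 109 CPM. None of these 3 passed the test.
Cyfip1 stood at 20.2, 23.4, 26.5 and 29.98 CPM in the home cage, 37.3, 40.3 and 42.3 in box and 25.8, 29.0, 36.1, 37.6 and 42.2 after shock. Its box libraries lay above its home cage libraries, as did those of Cyfip2 (578, 600 and 654 against 538, 549, 566 and 575 CPM) and as for 3.61% of genes in either direction, but the differences did not pass the test (Cyfip1 0.68, unadjusted p = 0.00788, adjusted p = 1). Cyfip1 after shock was 0.51 ± 0.20 above the home cage (adjusted p = 0.1296).
In the Camk2a 60 min lysates Cpeb4 held 45.6, 46.3, 48.0 and 101 CPM in the home cage and 30.3, 49.7, 54.4, 55.9 and 87.0 after shock, which overlap.
The Cpeb4 call rested on single libraries: it was lost in 8 of 12 fits that left out 1, without box replicate 1, any 1 of the 4 home cage libraries, or shock replicate 1, 4 or 5 (0.92 to 1.18, adjusted p up to 0.166). It was lost with library totals as the scaling (0.97, adjusted p = 0.0569) and with the own-class score or the sex as a covariate, and DESeq2, which called 11.3% of genes, called it with Cpeb2, Cpeb1 and Fmr1. The GC slope was 0.14 to 0.44 in home cage, −0.06 to 0.40 in box and −0.67 to 0.02 in shock libraries, opposite in order to the Pvalb line, and with GC and length offsets Cpeb4 was 0.45 (adjusted p = 0.227). The summed CPM of the 12 pyramidal markers was 10429 to 11386 in the home cage and 7739 to 12938 after shock, and that of the 12 GABA neuron markers 65.3 to 263 and 51.0 to 405, of which 5 were at 0 in some home cage library and 3 in some shock library. Their part in the Cpeb4 difference was not tested.

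No member was called in the other 16 of 18 comparisons between conditions in purified RNA, at 144 tests, of which 17 had an unadjusted p below 0.05 and DESeq2 called 1, Fxr2 between shock and box in Pvalb 60 min (0.46, with 1.33% of genes called). The share of all genes called by edgeR between shock and home cage was 0% in Camk2a 15 min and Pvalb 15 min, 1.21% in Sst 15 min and 4.49% in Sst 60 min. Between shock and box it was 8.18% in Sst 60 min and 0% in the other 5 tables, and between box and home cage 0% in all 6. In Pvalb 15 min Fmr1 was −0.83 (adjusted p = 0.295), Fxr1 −0.53, Cpeb2 −0.60 and Cpeb4 −0.62, with the same signs as at 60 min but not called. In Sst 15 min Cpeb1 was 0.59 (adjusted p = 0.225) and its shock libraries, at 38.1 to 66.5 CPM, lay above the home cage ones, at 26.2 to 33.8, as for 8.02% of genes in either direction. Cpeb3 there lay at 3.45 to 10.9 CPM after shock and at 11.1 to 16.1 in box mice, as for 3.35% of genes. In Camk2a 15 min, Fxr1 lay at 19.6 to 23.1 CPM in box mice and at 25.8 to 37.0 in the home cage, as for 10.7% of genes. These 3 gaps did not pass the test. In Sst 60 min Fmr1 stood at 10.9, 11.9, 13.3, 22.6 and 35.5 CPM in the home cage and at 7.15, 8.36, 46.9 and 90.3 in the libraries labelled purified after shock, and Cpeb4 at 14.7, 14.8, 17.7, 40.1 and 51.4 against 14.5, 15.5, 80.9 and 148. The shock values were thus split in 2 pairs on both sides of the home cage values, for both genes, and the changes, 0.93 and 1.13, were not called. All 4 of these libraries had a low own-class score, so the comparison cannot be made without them.
In the lysates, with the 3 lines in 1 fit and line as a covariate, edgeR called 0 of 54 member values in 6 comparisons, 1 had an unadjusted p below 0.05 (Cpeb1, shock less box at 15 min, 0.21), and DESeq2 called 0. The share of all genes called there was 0.118% between shock and home cage at 15 min, 0.0124% between box and home cage at 15 min, and 0% in the other 4. Within single tables, Cpeb1 lay at 61.4 to 67.8 CPM after shock and at 40.8 to 55.2 in box mice in the Camk2a 15 min lysates, as for 3.67% of genes in either direction, and Cyfip1 at 85.0 to 91.9 CPM in box mice and at 71.5 to 78.9 in the home cage in the Pvalb 15 min lysates, as for 2.77%.

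Whether the response to shock differed between the fractions was tested in each table as the difference of the 2 changes. In Pvalb 60 min, where 20.4% of genes were called, 4 of 9 members were: Fmr1 at −1.55 ± 0.45 (adjusted p = 0.0175), Fxr1 at −0.81 ± 0.29 (adjusted p = 0.0449), Cpeb2 at −1.05 ± 0.38 (adjusted p = 0.0467) and Fxr2 at 0.63 ± 0.17 (adjusted p = 0.0128). The sign shows that the purified change was the lower one for the first 3 and the higher one for Fxr2. Leaving out in turn the libraries of 1 condition and number lost the Fmr1 call in 2 of 18 fits (shock replicate 3 or 4), Fxr2 in 1 (shock replicate 4), Fxr1 in 11 and Cpeb2 in 12. With GC and length offsets 0 of 9 members and 4.46% of genes were called. A replicate block pairs the purified and lysate libraries of the same condition and number, and leaves out libraries without a number. With it 0 of 9 members and 0% of genes were called (Fmr1 −1.35, adjusted p = 0.173, and Fxr2 0.67, adjusted p = 0.111). The unnumbered home cage purified libraries are thus not in that fit. In the other 5 tables edgeR called 0 of 45 member values, 5 had an unadjusted p below 0.05 and DESeq2 called 0, against 0.00638% of genes in Camk2a 15 min, 0% in Camk2a 60 min and Pvalb 15 min, 1.58% in Sst 15 min and 0.0415% in Sst 60 min. In Camk2a 60 min Cpeb4 was 1.16 (adjusted p = 0.328) and Fmr1 1.08 (adjusted p = 0.357).

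The response to shock was also compared between lines at 60 min, where each line lies in a table of its own, so that line and table cannot be told apart. Between Pvalb and Camk2a 6 of 9 members differed, against 37.6% of all genes: Fmr1 by −2.23 ± 0.71 (adjusted p = 0.0140), Cpeb4 by −1.73 (adjusted p = 0.0306), Cpeb2 by −1.51 (adjusted p = 0.0328), Fxr1 by −1.02 (adjusted p = 0.0345), Cpeb1 by −0.75 and Fxr2 by 0.89 (adjusted p = 0.00782 each). The genes other than Fxr2 were thus lower after shock in Pvalb relative to their change in Camk2a. With GC and length offsets 15.3% of genes and 1 member, Cyfip2 (−0.52), were called. Of 41 fits that left out 1 library, the Fxr1 call was lost in 6 (Camk2a home cage replicate 4 or shock replicate 5, Pvalb home cage replicate 3 or shock replicate 4, 5 or 6), Cpeb2 in 4 (Camk2a home cage replicate 1, Pvalb shock replicate 3, 4 or 6) and Cpeb4 in 3 (Camk2a home cage replicate 1, Pvalb shock replicate 4 or 6). Between Sst and Pvalb, which shares the Pvalb libraries with the comparison before, 18.2% of genes and 4 members were called, Fmr1 at 1.95 ± 0.70 (adjusted p = 0.0465), Fxr2 at −1.26 ± 0.26 (adjusted p = 0.000725), Cpeb1 at 0.74 (adjusted p = 0.0138) and Cpeb4 at 1.77 (adjusted p = 0.0436). With GC and length offsets Fxr2 (−0.65) and Cpeb1 (0.63) were called, against 14.5% of genes. The Sst side of this comparison rests on the 4 shock libraries that go against their label, and single libraries end the Cpeb4 call in 20 and the Fmr1 call in 21 of 41 fits. Between Sst and Camk2a edgeR called 0 of 9 members and 4.85% of genes, with 0 members at an unadjusted p below 0.05 and 0 called by DESeq2. With GC and length offsets 1 member, Fxr2, was called there, as lower in Sst. The share of all genes called with them in that pair is not given here, and the pair rests on the same 4 Sst shock libraries.

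Genes that work with the members changed in Pvalb 60 min purified RNA too, where 35.0% of all genes were called, 19.7% higher and 15.3% lower. Of 8 WAVE complex genes 5 fell and 0 rose after shock, among them Abi2 (−0.92), Nckap1 (−0.83), Wasf1 (−0.82) and Rac1 (−0.49), with a list median of −0.60 against −0.06 over all genes. Of 18 FMRP partners and RNA granule genes 6 fell (33.3% of the list), with Nufip2 (−1.11), which binds FMRP, and the granule proteins Caprin1 (−0.63) and G3bp2 (−0.67) among them. Of 11 cap-binding genes 3 fell (27.3%): Eif4e (−0.72), the cap-binding factor, Eif4a2 (−0.64) and Eif4g2 (−0.84). Of 18 FMRP target genes 9 rose and 3 fell (66.7% called), with a median of 0.62. The postsynaptic scaffold genes Dlgap3 (1.36), Shank1 (1.01) and Shank3 (0.89) and the activity gene Arc (1.16) rose. Of 14 CPEB polyadenylation genes 4 rose, such as Cpsf1 (1.11) and Sympk (1.09), and 2 fell, such as the poly(A) polymerase gene Papd4 (−1.04). Of 12 CPEB target genes 2 rose, Grin1 (1.22) and Dlg4 (0.69), and 2 fell, Gria2 (−0.79) and Map2 (−0.81), together 33.3% of the list. With GC and length offsets, which called 12.8% of all genes, the WAVE list had 4 lower and a median of −0.23, the target list of FMRP 1 higher, 1 lower and a median of −0.01, and the cap-binding list none.
In Camk2a 60 min fewer genes of these lists were called, each of them higher after shock, against 2.30% of all genes in either direction. Of 8 WAVE genes 2 rose, Abi1 (1.06) and Wasf1 (1.001). Of 18 FMRP partners Caprin1 (0.82) and G3bp2 (0.89) rose, of 14 polyadenylation genes Cnot7 (0.9999), of 18 FMRP targets Kcnd2 (0.88) and Grm5 (0.83) and of 11 CPEB targets Gria2 (0.67). No cap-binding gene was called, with Eif4e at 0.70 (adjusted p = 0.0740). With GC and length offsets 0 genes of these lists were called, against 0.00682% of all genes.

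Between lines in the home cage, members differed in purified RNA, again with line and table not to be told apart. At 60 min, Pvalb RNA held more Fxr1 (0.84), Cpeb2 (1.28) and Cpeb3 (0.91) and less Fxr2 (−0.93) and Cpeb1 (−0.50) than Camk2a RNA, against 51.8% of all genes called. Sst RNA held less Fxr2 (−0.60) and Cyfip2 (−0.48) than Camk2a RNA (24.4% of genes called), and less Fmr1 (−1.62), Fxr1 (−0.71), Cpeb2 (−1.20), Cpeb3 (−1.45) and Cpeb4 (−1.36) than Pvalb RNA (44.2%). With library totals as the scaling the Sst and Camk2a values were −0.37 for Fxr2 and −0.23 for Cyfip2, neither called, and the median of all genes moved from 0.12 to 0.37. Without the low own-class libraries, 2 of them home cage libraries of the Sst line, both Sst and Camk2a calls were lost as well (Fxr2 −0.26, adjusted p = 0.358, and Cyfip2 −0.39, adjusted p = 0.0585, with 17.9% of genes called). Of the Sst and Pvalb differences, those of Fmr1 (−1.31) and Cpeb3 (−1.61) stayed called and Fxr2 (0.56) was called too, against 28.8% of genes. The GC and length offsets ended the calls of Fxr1 (−0.02), Fxr2 (−0.13, adjusted p = 0.532) and Cpeb3 (0.62, adjusted p = 0.111) between Pvalb and Camk2a. Cpeb2 (0.997) and Cpeb1 (−0.72) were then called, against 45.9% of genes. Between Sst and Pvalb the offsets ended the calls of Fmr1 (−0.67, adjusted p = 0.0842), Fxr1 (0.24) and Cpeb4 (−0.51), against 31.4% of genes. Fxr2 was then called lower in Sst than in Pvalb RNA, opposite in sign to its values without the offsets. Leaving out Camk2a home cage replicate 1 or 3 ended the Cpeb1 and Cpeb3 calls between Pvalb and Camk2a. The Fxr2 call between Sst and Camk2a was lost without any 1 of Camk2a or Sst home cage replicates 1, 2 and 3 (−0.55 to −0.39). That of Cyfip2 was lost without Camk2a home cage replicate 1, 2 or 3, Camk2a shock replicate 1 or 4, or 1 of the unnumbered Pvalb home cage libraries. The Fxr1 call between Sst and Pvalb was lost without Pvalb home cage replicate 3, 1 of the unnumbered ones, or Sst home cage replicate 1, 2 or 3 (−0.66 to −0.59). Taken as purified over lysate, which removes what both fractions of a table share, Pvalb exceeded Camk2a in Fmr1 (1.62), Fxr1 (1.01) and Cpeb2 (1.66), against 42.1% of genes. These 3 values are without GC and length offsets. In the plain comparison above the offsets ended the Fxr1 call (−0.02) and kept that of Cpeb2 (0.997). In the home cage lysates of the 60 min set edgeR called 0 of 27 member values between lines, of which 8 had an unadjusted p below 0.05, and 0.00608%, 0.0122% and 0% of all genes (DESeq2 was not run on lysates between lines).

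The Camk2a 15 min table lists fewer genes than the other 5 (23366 against 24391) and the annotation behind each table is not named. Cpeb4 stands far lower there in both fractions than in the Camk2a 60 min table and in the 15 min tables of the other lines. The gap thus goes with that 1 table, and whether its annotation plays a part was not tested. At 15 min the comparisons of lines with Camk2a carry this gap. Cpeb4 differed by 5.10 ± 0.70 between Pvalb and Camk2a (15.2% of genes called) and by 4.98 between Sst and Camk2a (9.50%). Cpeb1 was lower in Pvalb than in Camk2a RNA (−1.42 ± 0.32). Between Sst and Pvalb edgeR called 0 of 9 members, with 0 at an unadjusted p below 0.05, DESeq2 called 0, and 0.0548% of genes were called. The Cpeb4 gap was present in both fractions. In the Camk2a 15 min table Cpeb4 stood at 1.09, 1.69 and 2.5 CPM in purified and at 2.30, 3.13 and 5.77 in lysate libraries, in the Camk2a 60 min table at 25.3, 51.2 and 86.0 and at 30.3, 52.1 and 101. The lysates, which hold the same tissue in all lines, showed the same gap: Pvalb less Camk2a was 3.84 and Sst less Camk2a 4.12 at 15 min, both called (36.5% and 35.5% of genes). Within the Camk2a line the 60 min less the 15 min home cage was 4.19 ± 0.34 in purified RNA (33.3% of genes called) and 3.802 in lysates (26.5%), and the difference of purified over lysate was 0.44 and not called (0.0518%). The Camk2a 15 min lysates lay 4.04 log2 units below the median of the other tables' lysates in Cpeb4, and 10 of 13626 genes lay as far below. Taken as purified over lysate, Cpeb4 did not differ at 15 min either (1.13 between Pvalb and Camk2a, adjusted p = 0.277), while Cpeb1 did (−1.14; 10.3% of genes called).

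**Figure D5:**
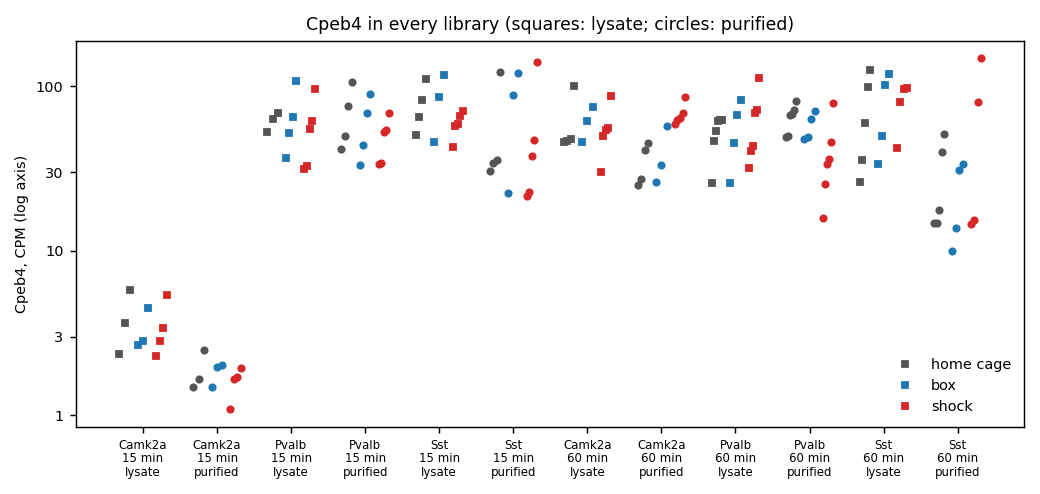
Cpeb4 CPM (y axis, log scale) in all 151 libraries by table and condition, with squares for lysate and circles for purified libraries. The 20 libraries of the Camk2a 15 min table lie at 1.09 to 5.77, all other libraries at 9.94 or above.

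Between the sets, other home cage differences in purified RNA were in the Camk2a line Fxr2 (0.68), Cyfip1 (−0.69), Cpeb1 (−0.49) and Cpeb2 (−1.19), and in the Sst line Cpeb3 (−1.63, 16.2% of genes called). All 4 calls of the Camk2a line were lost with the offsets, where 18.8% of genes were called (Fxr2 −0.30, Cyfip1 −0.31, Cpeb1 −0.22 and Cpeb2 −0.90). Of 22 fits that left out 1 library, Cpeb1 lost its call in 16 (−0.55 to −0.35) and Cyfip1 in 7 (15 min home cage replicate 1 or 2, 15 min box replicate 2, 60 min home cage replicate 2 or 4, 60 min box replicate 2 or 3). Cyfip1 was −0.41 without 15 min home cage replicate 1, and without that library the Fxr2 and Cpeb2 calls were lost too (adjusted p = 0.0567 and 0.0536). The Cpeb1 call remained in the 6 fits that left out 15 min shock replicate 2 or 3, 60 min home cage replicate 1, 60 min box replicate 1, or 60 min shock replicate 2 or 3. 
In the Pvalb line edgeR called 0 of 9 members and 0.391% of genes, with 0 members at an unadjusted p below 0.05 and 0 called by DESeq2. Home cage mice have no time point, so these are differences between sets. The response to shock did not pass the test between sets for any member: edgeR called 0 of 27 values, 7 had an unadjusted p below 0.05 and DESeq2 called 2, Cpeb4 (1.22) and Cpeb1 (0.80) in the Camk2a line, where it called 10.7% of genes, against 5.71%, 0% and 0% of all genes called by edgeR in Camk2a, Pvalb and Sst.

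The genes whose mean log2 CPM over the 36 groups went most closely with each member were Pcmtd1 (r = 0.972) and Usp33 (0.966) for Fmr1, Dcaf13 (0.905) and Cept1 (0.883) for Fxr1, Smap2 (0.957) and Epb4.1l1 (0.932) for Fxr2, and Tm7sf3 (0.971) and Exoc6 (0.963) for Cyfip1. For Cyfip2 they were Zmynd11 (0.890) and Dcaf5 (0.889), for Cpeb1 Prss35 (0.916) and Tgfb2 (0.903), for Cpeb2 Hecw2 (0.874) and Zfp597 (0.871) and for Cpeb3 Vezf1 (0.752) and Lpgat1 (0.732). Bmpr2 (0.992) and Tbck (0.978) went with Cpeb4. These are the highest of 12475 genes, and the groups share tables, fractions and lines. Cpeb4 stood far lower in the Camk2a 15 min groups than in the others, so that step enters its 2 values.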

How the data were processed

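The authors deposited raw read counts by gene symbol as 6 tables, 1 for each line and set, holding purified and lysate libraries together. The authors used STAR 2.7.7a, featureCounts, DESeq2 and the mouse build GRCm38, per the submitters' processing notes, which give no role or order. The sources used here name no annotation and no treatment of reads that fit several genes. Per the labels' protocols, RNA was cleaned up with RNeasy Mini columns and polyA libraries were prepared with Nextera XT, which does not mark strand. Of 153 labelled samples, 151 had a count column; 3 columns matched a group but no single sample and entered without a number, and 2 samples are not analysed here.

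CPM is a gene's share of all counts of its library on the usual scale. Tests used edgeR 4.0.16 in R 4.3.3 (filterByExpr, TMM, robust quasi-likelihood fit), with Benjamini-Hochberg adjustment over all genes tested and a threshold of 0.05; log2 fold changes carry standard errors. The alternatives were DESeq2 1.42.0, its size factors, no filter, a replicate block, GC content and length offsets, covariates for own-class score and for sex (called from Y-linked genes), leaving out libraries and, chosen after seeing the data, library totals only, sex, the 3 deep lysates and purified over lysate. Gene positions, exon lengths, GC content and coding stretches came from GENCODE M21 on GRCm38. Of 257 pairs of libraries within a group none agreed within sampling noise. The tests were tested on simulated counts: of genes changed by 1 log2 unit, 44.8% of 96 were recovered among 14673 genes in Camk2a 60 min and 40.4% of 99 among 16135 in Pvalb 60 min. At 2 log2 units these were 68.75% of 96 and 59.8% of 97, and 6 unchanged genes were called in each. The simulated libraries held no GC slope, so they do not show how the tests behave with one.

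The members and gene lists were chosen with earlier results of these data known. All 9 members are named in each family of comparisons; of other lists, up to 4 called genes with the smallest p, or otherwise the gene with the smallest p; and per member the 2 genes most correlated over groups.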

Additional observations from a re-analysis of the deposited data

Results flagged for a closer look

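In 17 of 243 sets of 1 member in 1 group of 4 to 6 libraries, 6.996%, the highest or lowest library stood far from the others, where chance alone gives about 1 in 20 groups. Of Fmr1, these were Pvalb 15 min purified shock replicate 2 (43.1 CPM), an unnumbered Pvalb 60 min purified home cage library (78.2 CPM) and Sst 15 min purified home cage replicate 3 (88.1 CPM). Of Fxr2, they were Camk2a 60 min purified home cage replicate 3 (133 CPM) and shock replicate 3 (109 CPM), Camk2a 60 min lysate shock replicate 2 (71.6 CPM), Pvalb 60 min lysate box replicate 4 (83.9 CPM) and Sst 60 min lysate shock replicate 2 (39.8 CPM). Of the CYFIP genes, they were Cyfip1 in Sst 15 min lysate home cage replicate 4 (100.8 CPM) and Cyfip2 in Pvalb 15 min purified box replicate 3 (525 CPM) and in Sst 60 min lysate box replicate 1 (818 CPM), 1 of the 3 deep lysates. Of the CPEB genes, they were Cpeb1 in Pvalb 60 min purified shock replicate 4 (17.8 CPM), Cpeb2 in Camk2a 15 min purified shock replicate 2 (10.8 CPM), Cpeb3 in Pvalb 60 min lysate box replicate 4 (12.5 CPM), and Cpeb4 in Camk2a 60 min lysate home cage replicate 2 (100.7 CPM), Sst 15 min purified home cage replicate 3 (122 CPM) and Sst 15 min purified shock replicate 3 (141 CPM). Sst 15 min purified home cage replicate 3 was the highest of its group for both Fmr1 and Cpeb4.

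The response to shock differed between groups by a test of the difference itself in 14 member values. Between fractions in Pvalb 60 min these were Fmr1 (−1.55), Fxr1 (−0.81), Fxr2 (0.63) and Cpeb2 (−1.05); with a replicate block 0 of these 4 passed the test. Between Pvalb and Camk2a at 60 min they were Fmr1 (−2.23), Fxr1 (−1.02), Fxr2 (0.89), Cpeb1 (−0.75), Cpeb2 (−1.51) and Cpeb4 (−1.73). Between Sst and Pvalb they were Fmr1 (1.95), Fxr2 (−1.26), Cpeb1 (0.74) and Cpeb4 (1.77). The comparisons between lines share the Pvalb libraries, and those of the Sst line rest on shock libraries with a low own-class score.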

How the results depend on the processing

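Of 70 called member values, GC and length offsets kept 35 called in the same direction, left 26 short of the threshold and turned 9; library totals kept 57, DESeq2 69 and the fit without a filter 66. In 43 of the 70, every fit that left out a replicate kept the call. Called members in purified conditions were 6, and 11 with DESeq2, 1 with the offsets and 3 with sex as a covariate (4 to 10 without a replicate). Lysate conditions gave 0 in each alternative run. Fraction enrichment gave 29, and 17 in home cage libraries only (26 to 31 without a replicate). The line differences in the home cage gave 15 (11 to 19 without a replicate), and those of the shock response 10, and 4 with the offsets (5 to 13 without a replicate). The set differences in the home cage gave 6, and 2 with the offsets (2 to 6 without a replicate), and those of the shock response 0, and 2 with DESeq2 (0 to 2 without a replicate). In Pvalb 60 min, shock less home cage gave 5, and 1 with the offsets, 3 without a filter and 3 with sex as a covariate (3 to 6 without a replicate). In Camk2a 60 min it gave 1, 4 with DESeq2 and 0 with the offsets, library totals, the own-class score or sex (0 to 2 without a replicate).

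The fraction difference of the shock response in Pvalb 60 min gave 4, 0 with the offsets and 0 to 5 without a replicate. The replicate numbers were not taken to pair the samples, since in no table did every pair of same-numbered libraries have deviations correlated above 0.1; Camk2a 15 min came closest, with 9 of 10 purified and lysate pairs above it (0.0545 to 0.390). With the replicate block, this count was 0, that of fraction enrichment 27, that of purified conditions 4 and that of Pvalb 60 min shock less home cage 3.

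With the offsets, Fxr2 turned to −0.0019 in the Pvalb 60 min fraction difference and to 0.19 in the Pvalb 60 min enrichment (called). It was −0.055 in the Pvalb 60 min shock change and −0.12 in the Pvalb and Camk2a shock difference. Between Sst and Pvalb home cages at 60 min it was −0.50 (called), and between the Camk2a sets −0.30. Fxr1 turned to 0.48 in the Sst 60 min enrichment, 0.22 in the Pvalb and Camk2a shock difference, and −0.021 and 0.24 in the Pvalb less Camk2a and Sst less Pvalb home cages at 60 min. Cpeb4 turned to 0.16 in the Sst 60 min enrichment, and in home cage libraries only Cyfip2 was 0.018 in the Pvalb 60 min enrichment. The cause was not tested. The Sst 60 min shock contrasts could not be made without low own-class libraries. Small counts limit Cpeb3 most, and Cpeb4 in the Camk2a 15 min table, where Cpeb4 was low in CPM as well.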
